A study of Mus musculus with 6 samples.

Results

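Foxp3 and 7 further genes of the regulatory T cell programme (Izumo1r, Ikzf2, Ikzf4, Nrp1, Lrrc32, Ebi3 and Gpr83) were followed in mouse CD8+ T cells cultured as Tc17 or Tc1. Each gene was represented by the probe set whose platform annotation gave exactly its symbol, and by the brightest one over the 6 arrays where there were several, which was the case for Ebi3 with 2 probe sets. All 8 genes were found among the 22180 genes measured. Naive splenic CD8+ T cells were stimulated over 4 days with 1 µg/ml of anti-CD3 and 3 µg/ml of anti-CD28. The Tc17 cultures received IL-6 and TGF-beta for 3 days and the Tc1 cultures received IL-12 for 3 days, and both were then kept with IL-2 for 1 day. Both groups therefore share the CD3 and CD28 stimulation and the IL-2 step, and no group without cytokines or with TGF-beta alone was analysed here. Each group had 3 single-colour Affymetrix arrays, namely biological samples 1 and 2 and a technical array, which left 2 samples per group. The label of the technical array carries the number 2 but does not state whose RNA it repeats, and it was read as sample 2 and averaged with it. The labels do not state whether the samples came from separate mice or cultures, so p-values measure only the spread between these samples. Mouse strain, age and allele are not given in the labels.

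Regulatory T cells are the lineage that restrains immune responses, and Foxp3 is the forkhead transcription factor that defines them. Activated T cells exposed to TGF-beta can switch Foxp3 on outside the thymus, while IL-6 given with TGF-beta turns CD4+ T cells towards the IL-17-producing state. Among the genes that accompany Foxp3, Ikzf2 (Helios) and Nrp1 (neuropilin-1) are known for being higher in mouse regulatory T cells made in the thymus than in those induced outside it.

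The Foxp3, Izumo1r and Gpr83 promoters are shown because these genes rose in Tc17, and the last 2 lie side by side on chromosome 9. Sequences are from RefSeq, assembly GRCm38.p6, and run from 250 bases before to 50 bases after an annotated start. A window was on hand for 5 of the 8 genes, and for Foxp3, which had 2 windows, the one at the outermost start is given. Capitals mark exact matches on either strand to 5 short motifs. The motif of the core promoter box bound by the TATA-binding protein was searched as TATAAA, and that of the SMAD proteins, which carry the TGF-beta signal, as CAGAC. The motif of the NFAT factors of T cell activation was searched as GGAAA, that of the Runt factors (RUNX) as TGTGGT, and that of the STAT factors of cytokine signalling as TTCNNNGAA. No match to one of these overlapped a match to another in the 3 windows. Foxp3 lies at chrX:7579426-7579725 on the plus strand, Izumo1r at chr9:14903718-14904017 on the minus strand and Gpr83 at chr9:14859960-14860259 on the plus strand.
Foxp3: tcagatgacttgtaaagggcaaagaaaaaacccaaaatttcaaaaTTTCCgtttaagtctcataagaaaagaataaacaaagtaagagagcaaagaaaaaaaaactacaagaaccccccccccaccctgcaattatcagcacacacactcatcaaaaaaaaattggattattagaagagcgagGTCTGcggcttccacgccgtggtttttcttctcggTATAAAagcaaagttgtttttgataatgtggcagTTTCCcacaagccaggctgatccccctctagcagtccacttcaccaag
Izumo1r: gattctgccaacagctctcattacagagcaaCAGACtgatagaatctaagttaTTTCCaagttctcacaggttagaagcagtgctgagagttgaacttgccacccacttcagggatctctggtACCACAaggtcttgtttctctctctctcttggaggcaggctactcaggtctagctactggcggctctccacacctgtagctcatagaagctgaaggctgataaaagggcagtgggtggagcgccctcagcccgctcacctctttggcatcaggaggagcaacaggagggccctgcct
Gpr83: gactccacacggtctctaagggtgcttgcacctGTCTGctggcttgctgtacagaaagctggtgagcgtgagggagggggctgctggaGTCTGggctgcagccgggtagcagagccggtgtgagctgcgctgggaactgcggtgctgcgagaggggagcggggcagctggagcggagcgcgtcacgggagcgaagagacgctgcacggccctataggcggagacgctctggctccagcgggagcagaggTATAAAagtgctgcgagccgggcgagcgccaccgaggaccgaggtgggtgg
The Foxp3 window held 1 TATA box, beginning 32 bases before the start, 1 SMAD match and 2 NFAT matches. The Izumo1r window held 1 SMAD, 1 NFAT and 1 RUNX match, and the Gpr83 window held 2 SMAD matches and 1 TATA box beginning 1 base before the start. No STAT match was found in the 3 windows. Of 32851 RefSeq windows of this length, 49.6% held the SMAD letters, 61.3% the NFAT letters, 16.8% the RUNX letters, 13.6% the TATA letters and 8.30% the STAT letters. The windows of Ebi3 and Nrp1, 2 genes that did not pass the test below, held 1 SMAD match each as well. These matches describe the letters only.

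Each of the 8 genes was compared between Tc17 and Tc1. Foxp3, Izumo1r, Ikzf4 and Gpr83 were higher in Tc17, and Ebi3 had a smaller difference above 0 that did not pass. Lrrc32, Nrp1 and Ikzf2 had differences of −0.04, −0.11 and −0.51 on the log2 scale and did not pass. Foxp3 was 15.5-fold higher, against 2.97-fold for Izumo1r, 2.72-fold for Ikzf4 and 2.09-fold for Gpr83. A gene was called where the p-value of limma's moderated test, adjusted by Benjamini-Hochberg across the 41345 probe sets, was under 0.05, and 4 of the 8 genes were called, all higher. Over all 22180 genes 1.58% were called, 0.992% higher and 0.591% lower, and over all probe sets 1.01%. These shares include dim genes, since 8170 of the 22180 lay below the array medians on all 6 arrays, against 0 of the 8. The median log2 difference was 0.96 for the 8 genes and 0.87 for the 7 without Foxp3, against −0.01 for all genes. The 3 Tc17 arrays lay above the 3 Tc1 arrays in 5 of the 8 genes, as they did in 15.2% of all genes. The call of Foxp3 held without each biological sample, but those of the others did not all hold. These fits have fewer samples and called fewer probe sets in general. In them the log2 difference ran from 1.43 to 1.71 for Izumo1r, 1.38 to 1.51 for Ikzf4 and 0.95 to 1.18 for Gpr83.

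**Figure D1:**
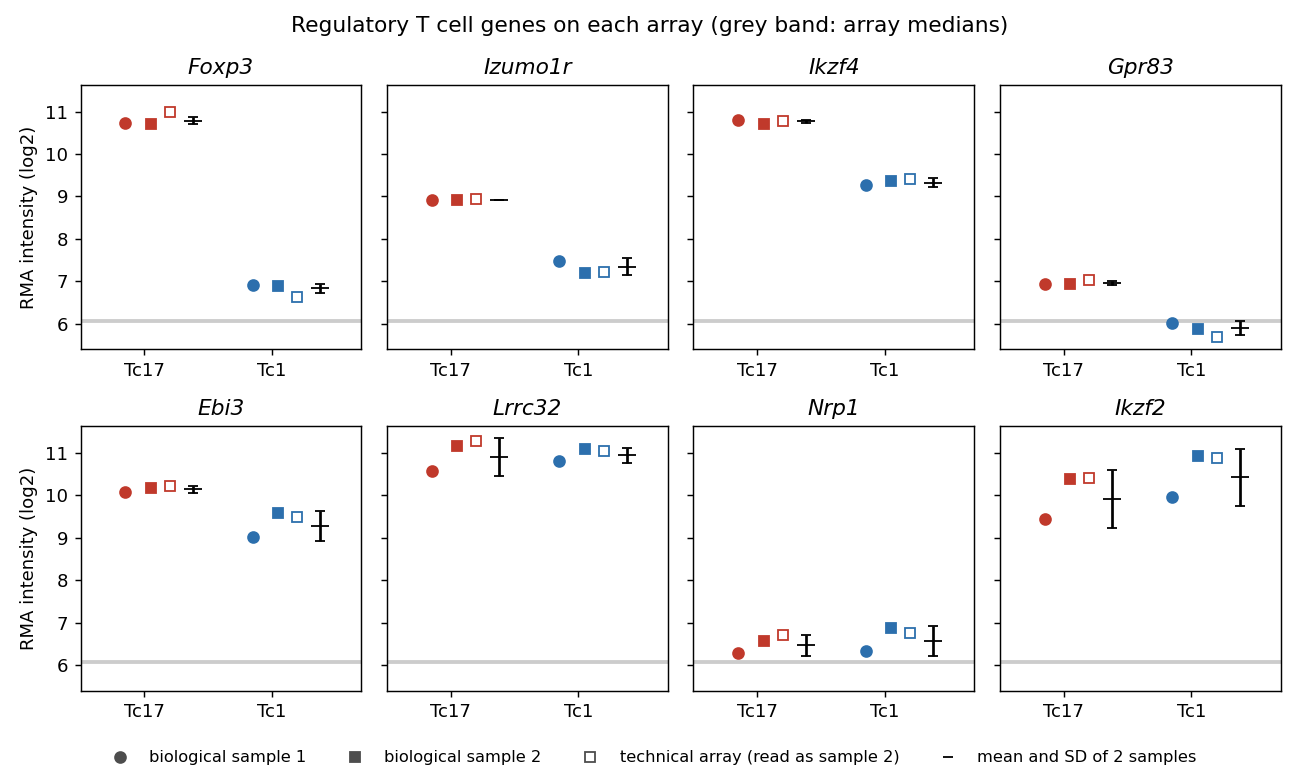
RMA intensity (log2) of each gene on every array, Tc17 in red and Tc1 in blue, with sample 1 as a circle, sample 2 as a filled square and the technical array, read as sample 2, as an open square; black marks give the mean and SD of 2 samples, and the grey band spans the array medians. The Tc17 arrays lay above the Tc1 arrays for Foxp3, Izumo1r, Ikzf4, Gpr83 and Ebi3, and the arrays of both groups overlapped for Lrrc32, Nrp1 and Ikzf2.

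Foxp3 (probe set 17532811, chromosome X) measured 10.73, 10.70 and 11.00 in Tc17 (sample 1, sample 2 and the technical array), against 6.92, 6.88 and 6.64 in Tc1, as log2 intensities. All Tc17 arrays lay far above all Tc1 arrays, and the technical arrays were the highest in Tc17 and the lowest in Tc1. The group means were 10.79 ± 0.09 in Tc17 and 6.84 ± 0.11 in Tc1 (log2, SD, n = 2 each). The log2 difference was 3.95 ± 0.10 (SE, 95% interval 3.70 to 4.20, limma adjusted p = 0.00213), the 9th largest increase among all genes. It ran from 3.87 to 4.03 with each biological sample left out in turn. The Tc1 level was a little above the array medians, which lay between 6.04 and 6.09, and the arrays give no detection call. Signal above background was therefore not shown for Foxp3 in Tc1, and folds throughout are ratios of intensities.

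Among surface molecules, Izumo1r encodes the protein named folate receptor 4, a marker of regulatory T cells. It (probe set 17524092, chromosome 9) measured 8.91, 8.91 and 8.94 in Tc17, against 7.49, 7.20 and 7.21 in Tc1. The Tc17 arrays were nearly identical and lay above every Tc1 array, and Tc1 sample 1 was the highest of its group. Means were 8.92 ± 0.01 in Tc17 and 7.35 ± 0.20 in Tc1 (log2, SD, n = 2 each), and the difference on the log2 scale was 1.57 ± 0.12 (SE; adjusted p by limma = 0.0179). The difference ran from 1.43 to 1.71 with each sample left out, and it passed only without Tc1 sample 1 (limma adjusted p from 0.0449 to 0.111 over the 4 fits).

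Gpr83 encodes a G protein-coupled receptor enriched in regulatory T cells. It (probe set 17514789, chromosome 9) measured 6.93, 6.94 and 7.04 in Tc17, against 6.01, 5.89 and 5.68 in Tc1. The groups did not overlap, but the Tc1 arrays all lay below their own array medians. Means were 6.96 ± 0.04 in Tc17 and 5.90 ± 0.16 in Tc1 (log2, SD, n = 2 each), and the difference on the log2 scale was 1.06 ± 0.11 (SE; adjusted p by limma = 0.0347). The difference ran from 0.95 to 1.18 with each sample left out and passed in none of these 4 fits (limma adjusted p from 0.0846 to 0.18).

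Nrp1 encodes neuropilin-1, a co-receptor for semaphorins and vascular endothelial growth factor. It (probe set 17506991, chromosome 8) measured 6.28, 6.58 and 6.71 in Tc17, against 6.32, 6.87 and 6.75 in Tc1. The arrays of both groups overlapped, sample 1 was the lowest of each group, and all 6 arrays were within about a log2 unit of the array medians. The log2 difference was −0.11 (95% interval −0.66 to 0.45, limma adjusted p = 0.891), so neither a modest rise nor a modest fall was distinguishable at this number of samples. Its sign turned to 0.08 without Tc17 sample 1 and 0.14 without Tc1 sample 2.

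Lrrc32 encodes GARP, which holds latent TGF-beta on the cell surface. It (probe set 17480485, chromosome 7) measured 10.58, 11.16 and 11.27 in Tc17, against 10.81, 11.10 and 11.04 in Tc1. Every array was well above the array medians and the groups overlapped, with Tc17 holding both the lowest and the highest array. The log2 difference was −0.04 (95% interval −0.67 to 0.58, limma adjusted p = 0.963). It was 0.27 without Tc17 sample 1 and 0.08 without Tc1 sample 2, and in sample 1 Tc17 was lower than Tc1 by a difference of −0.24 while in sample 2 it was higher by 0.15.

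Of the transcription factors other than Foxp3, Ikzf4 encodes Eos, an Ikaros family protein that works with Foxp3 in silencing genes. It (probe set 17246268, chromosome 10) measured 10.80, 10.71 and 10.79 in Tc17, against 9.26, 9.37 and 9.42 in Tc1. The groups were clear of each other and the spread within each was small. Means were 10.77 ± 0.03 in Tc17 and 9.33 ± 0.10 in Tc1 (log2, SD, n = 2 each), and the difference on the log2 scale was 1.44 ± 0.09 (SE; adjusted p by limma = 0.0114). The difference ran from 1.38 to 1.51 with each sample left out and passed in none of these 4 fits (limma adjusted p from 0.0641 to 0.0858).

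Ikzf2 encodes Helios, another Ikaros family protein. It (probe set 17223985, chromosome 1) measured 9.44, 10.39 and 10.41 in Tc17, against 9.95, 10.94 and 10.87 in Tc1. Within each group sample 1 was about a log2 unit below the other 2 arrays. The gap to sample 2, the technical array included, was 0.96 in Tc17 and 0.95 in Tc1, larger than the difference between the groups. The log2 difference was −0.51 (95% interval −1.70 to 0.68, limma adjusted p = 0.722), and it was −0.52 between the samples numbered 1 and −0.51 between those numbered 2. It passed only with samples of the same number treated as pairs, a pairing that the labels do not give. The difference was −0.03 without Tc17 sample 1 or without Tc1 sample 2, and −0.99 without Tc17 sample 2 or without Tc1 sample 1.

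Ebi3 encodes the chain shared by the cytokines IL-27 and IL-35. Its brighter probe set (17338642, chromosome 17) measured 10.09, 10.18 and 10.21 in Tc17, against 9.02, 9.58 and 9.48 in Tc1. The Tc17 arrays lay above the Tc1 arrays, with Tc1 sample 1 the lowest. The log2 difference was 0.87 ± 0.19 (SE, 95% interval 0.38 to 1.36) and did not pass (limma adjusted p = 0.163). With the technical array averaged with sample 1 instead, the difference was 0.75 and passed (limma adjusted p = 0.0463). Across all probe sets, however, the technical array correlated more closely with sample 2 than with sample 1 in both groups. Ebi3 also passed with samples of the same number treated as pairs, a pairing that the labels do not give. Its difference was 1.12 without Tc1 sample 2 and 0.61 without Tc1 sample 1. The other Ebi3 probe set (17346074) had a log2 difference of 0.06 (limma adjusted p = 0.866), with 6.58 in Tc17 and 6.52 in Tc1.

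**Figure D2:**
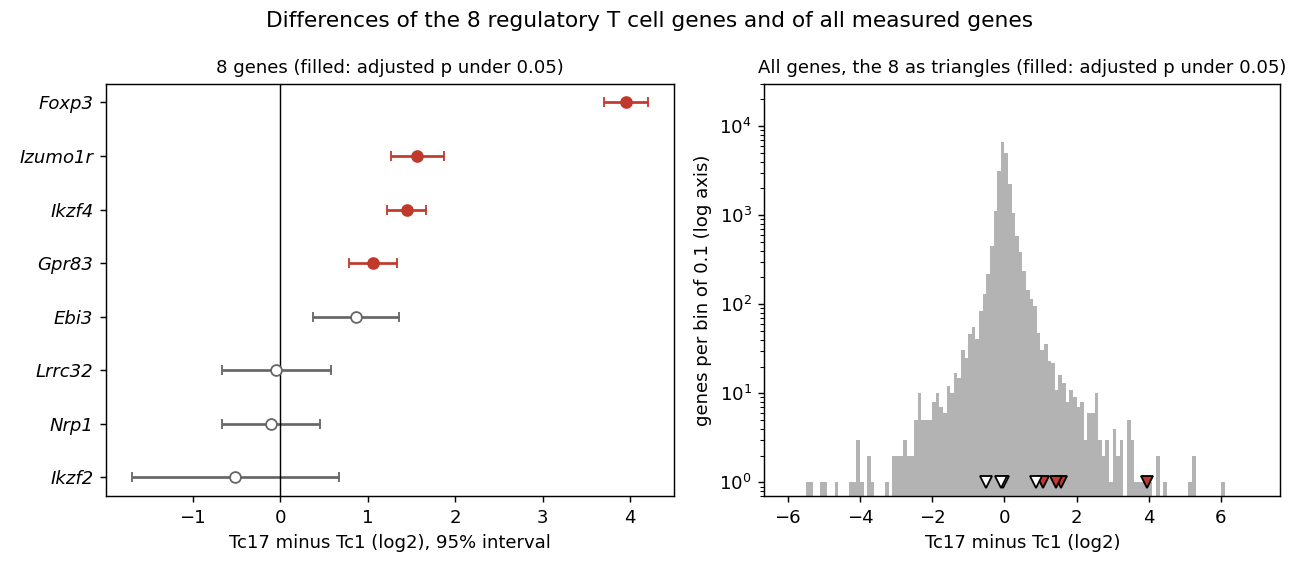
Left, Tc17 minus Tc1 on the log2 scale with the 95% interval of limma's moderated fit for each gene, filled where the adjusted p was under 0.05; right, the number of all measured genes in each bin of that difference on a log axis, with the 8 genes as triangles. Foxp3 lay at 3.95, the other genes that passed between 1.06 and 1.57, and the intervals of Lrrc32, Nrp1 and Ikzf2 held 0.

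Ikzf4 was the Ikaros family gene that passed. The other measured genes of the family, Ikzf1 (Ikaros), Ikzf3 (Aiolos) and Ikzf5 (Pegasus), had log2 differences of −0.08, −0.03 and 0.11 and none passed (limma adjusted p = 0.808, 0.962 and 0.692). In the FoxP family, Foxp1 and Foxp4 measured 10.92 and 10.15 in Tc17, against 10.97 and 9.86 in Tc1. Their log2 differences, −0.05 and 0.29, missed the threshold (limma adjusted p = 0.841 and 0.327). Foxp2 had a difference of 0.0026, with all 6 arrays below the array medians.

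The position of the genes along the chromosomes was taken from RefSeq. Gpr83 and Izumo1r were next to each other on chromosome 9, with 0 annotated genes between them, and both were called. The genes on either side were picked after the values had been seen. On the Gpr83 side, Mre11a (a DNA repair gene), Ankrd49 and 1700012B09Rik had log2 differences of −0.16, 0.15 and −0.03. On the Izumo1r side, Panx1 (a channel for ATP release), Hephl1 and Vstm5 had 0.21, −0.08 and 0.96. None of the 6 passed, with Vstm5 nearest to the threshold (limma adjusted p = 0.0625). Around Foxp3 on chromosome X, the differences were 0.52 for Flicr, a long non-coding RNA gene that regulates Foxp3, 0.69 for Ppp1r3f and 0.10 for 2010204K13Rik on one side. On the other side they were −0.08 for Cacna1f, 0.62 for Syp and 0.26 for Prickle3. None of these 6 passed either (limma adjusted p from 0.125 to 0.802). For all of them but Cacna1f, however, the 3 Tc17 arrays lay above the 3 Tc1 arrays, as in 15.2% of all genes. Flicr measured 6.32, 6.14 and 6.14 in Tc17, against 5.84, 5.57 and 5.57 in Tc1, where all 3 arrays lay below their medians.

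**Figure D3:**
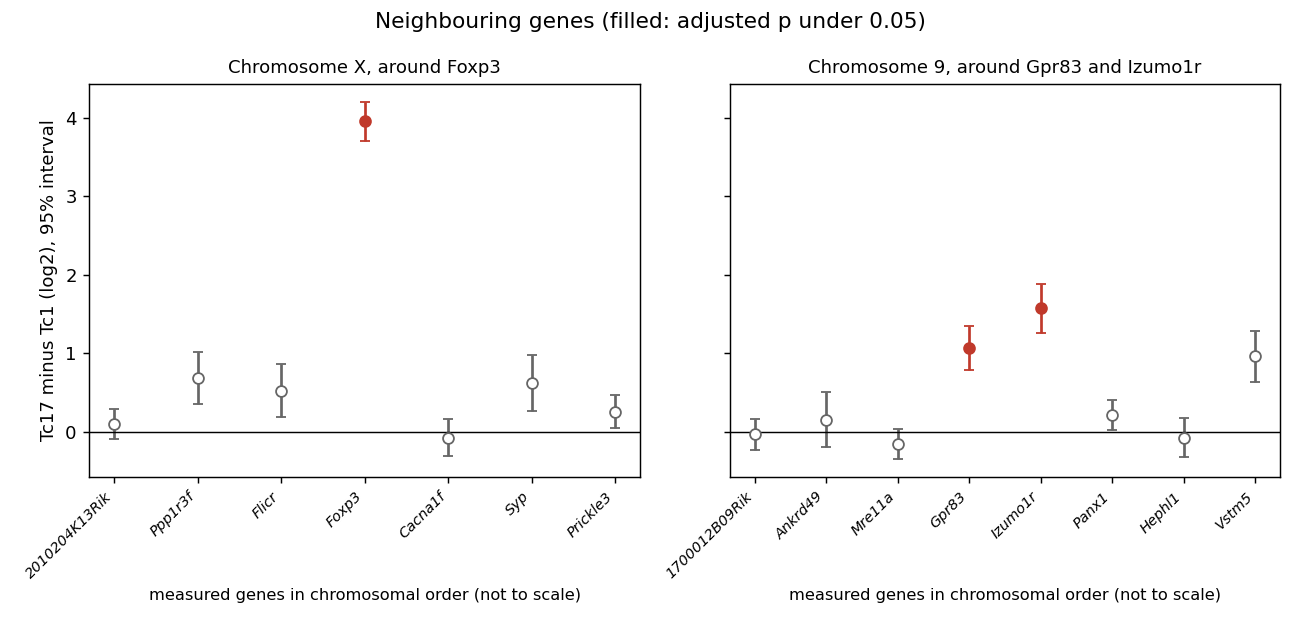
Tc17 minus Tc1 on the log2 scale with the 95% interval for Foxp3 and the nearest measured genes on chromosome X (left) and for Gpr83, Izumo1r and their neighbours on chromosome 9 (right), in chromosomal order and not to scale. Foxp3 at 3.95 stood beside neighbours between −0.08 and 0.69, and Gpr83 and Izumo1r, adjacent to each other, were the filled points on chromosome 9.

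Other genes known in regulatory T cells did not move in 1 direction. Of 27 measured, 4 rose and 2 fell, with a median log2 difference of −0.0055. Over all 22180 genes 0.992% were called higher and 0.591% lower, the shares to set beside this list and those below. Itgae, the CD103 integrin chain, Nt5e (CD73), the ectoenzyme that makes adenosine, and the chemokine receptor gene Ccr8 rose, with differences of 5.19 ± 0.10, 2.54 ± 0.28 and 2.16 ± 0.17 (log2, SE). Their limma adjusted p-values were 0.00162, 0.0436 and 0.0215. Entpd1 (CD39), the ectoenzyme that acts before CD73, fell by 2.04 ± 0.12 (log2, SE; limma adjusted p = 0.0112). Capg, an actin-capping protein gene, also rose and Klrg1, an inhibitory receptor gene, fell, both named after their values were seen (1.12 and −0.91, limma adjusted p = 0.0429 and 0.0216). Klrg1 lay below the array medians on the 3 Tc17 arrays, and Itgae on the 3 Tc1 arrays.

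Of these 6 calls, Itgae passed without each biological sample, Nt5e passed without either Tc1 sample, Entpd1 passed without Tc1 sample 1, and Ccr8, Capg and Klrg1 passed in none of the 4 fits. The genes of the list that passed in these fits were not all among the 6 calls. Prdm1, the gene of the repressor Blimp-1, and Fgl2, a secreted inhibitor gene, had the largest differences that did not pass, −2.38 and −1.93 (limma adjusted p = 0.0621 and 0.0613).

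The IL-2 receptor alpha chain gene Il2ra and the inhibitory receptor gene Ctla4 were also picked after their values were seen, as classic regulatory T cell markers. Il2ra measured 13.28, 13.28 and 13.32 in Tc17, against 13.30, 13.23 and 13.34 in Tc1. All arrays lay far above the array medians, and the log2 difference was −0.0055 (95% interval −0.19 to 0.18, limma adjusted p = 0.987). Ctla4 measured 11.46, 11.61 and 11.50 in Tc17, against 10.88, 11.12 and 11.08 in Tc1. Its arrays did not overlap, and the test was not passed at a log2 difference of 0.52 ± 0.11 (SE; with a limma adjusted p = 0.153).

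Genes known to be low in regulatory T cells went both ways, with 2 of 11 higher, 1 lower and a median log2 difference of 0.16. Ifng, the interferon-gamma gene, was the 1 that fell, by 5.49 ± 0.23 (log2, SE, limma adjusted p = 0.0056). Igfbp4, which encodes a binding protein of insulin-like growth factors, rose by 3.48 ± 0.20 (log2, SE, limma adjusted p = 0.0109). Tnfsf8, the gene of CD30 ligand, rose by 0.86 ± 0.08 (log2, SE, limma adjusted p = 0.0285) with all Tc1 arrays below their medians. Ifng passed without each biological sample, Igfbp4 without either Tc1 sample and Tnfsf8 in none of these fits. Dapl1 and Il2, the largest of those that did not pass, had differences of 0.25 and 0.36, and Il2 lay below the array medians on all 6 arrays.

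Among 20 genes that help switch Foxp3 on, Tgfbr1 passed and was higher, and the median log2 difference was 0.17. Tgfbr1, a TGF-beta receptor gene, measured 8.73, 8.55 and 8.75 in Tc17, against 7.63, 7.80 and 7.80 in Tc1. The groups did not overlap, and the difference was 0.97 ± 0.09 (log2, SE, limma adjusted p = 0.0334), which did not pass with any biological sample left out. Nr4a3, a nuclear receptor gene induced by T cell receptor signals, and Runx1, a Runt factor gene, differed by 1.32 and 1.19 without passing (limma adjusted p = 0.164 and 0.234). Among 12 genes that hold Foxp3 back, Il6ra, which encodes the ligand-binding receptor subunit for IL-6, passed and was higher, and the median was 0.14. Il6ra measured 9.73, 8.98 and 9.16 in Tc17, against 6.51, 6.98 and 6.90 in Tc1. The difference was 2.67 ± 0.27 (log2, SE, limma adjusted p = 0.035), and it did not pass with any biological sample left out. Neither Il6st, the gene of the shared gp130 chain, at −0.79 nor Rora at 0.75 passed (limma adjusted p = 0.174 and 0.156).

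Partners of the surface and secreted proteins were described in the same way. Of 12 genes that act with neuropilin-1, Sema4a, the gene of a semaphorin that binds it, fell. It measured 8.29, 8.31 and 8.49 in Tc17, against 10.58, 10.93 and 10.93 in Tc1. The Tc17 arrays lay below the Tc1 arrays by more than 2 log2 units, with a difference of −2.41 ± 0.14 (SE, limma adjusted p = 0.0112), and the call held without either Tc1 sample but not without a Tc17 sample. Plxnd1 and Plxnb2, plexin genes, had −0.39 and 0.16 and did not pass.

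None of 9 genes acting with GARP passed, and 4 of them (Tgfb2, Itgb8, Itgb6 and Ltbp1) lay below the array medians on all 6 arrays. Tgfb3, a TGF-beta gene, measured 11.24, 11.66 and 11.68 in Tc17, against 10.31, 10.70 and 10.68 in Tc1. Its groups did not overlap, sample 1 was the lowest in both, and the test was not passed at 0.95 (limma adjusted p = 0.159). Nrros, which like GARP anchors latent TGF-beta, had −0.82 (limma adjusted p = 0.082). None of 8 partners and receptors of Ebi3 passed, Il12rb2, a receptor chain gene of IL-12 and IL-35, having the largest difference at −1.16 (limma adjusted p = 0.158), before Il6st. None of the 4 measured genes of folate receptors and folate transporters passed. Slc46a1 and Slc19a1 had differences of 1.03 and 0.13.

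**Figure D4:**
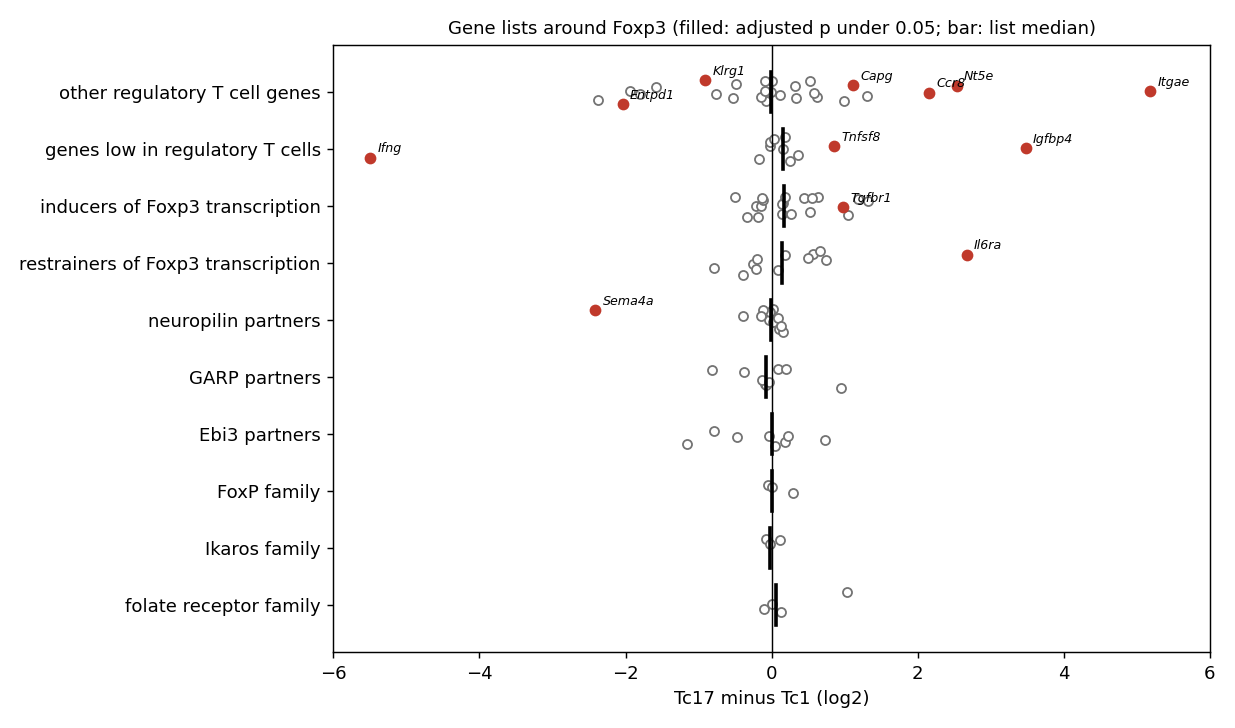
Tc17 minus Tc1 on the log2 scale for each measured gene of the lists around Foxp3, 1 point per gene, filled and named where the adjusted p was under 0.05, with the list median as a black bar. The list medians lay between −0.07 and 0.17, and the filled points lay on both sides of 0 among other regulatory T cell genes and genes low in regulatory T cells.

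By Euclidean distance over the 6 arrays, with each gene centred on its own mean, the genes nearest to Foxp3 were Ifngr2 (distance 0.44), Gpr15 (0.55), Muc13 (0.62), Pdpn (0.63) and Igfbp4 (0.71). Their log2 differences were 4.00, 3.68, 3.50, 3.79 and 3.48. Of the 7 accompanying genes Izumo1r was nearest at 2.93, then Ikzf4 at 3.19, Gpr83 at 3.54, Ebi3 at 3.96, Lrrc32 at 4.91, Nrp1 at 5.08 and Ikzf2 at 5.64. The distance reflects mainly the size of the difference between the groups, since Foxp3 hardly varied within them.

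The labelled cell type was checked on its markers, and RNA of whole cultures cannot tell fewer cells of a type from less RNA per cell. Cd8a lay between 12.75 and 12.82 in Tc17 and between 12.87 and 13.01 in Tc1, and 0 of 4 CD8 T cell markers passed. None of 3 markers of CD4+ T cells, among which most Foxp3+ cells of the spleen are found, passed. Their mean level ran from 6.50 to 6.61 in Tc17 and from 6.61 to 6.75 in Tc1. Cd4 lay between 6.80 and 7.36 in Tc17 and between 6.98 and 7.19 in Tc1, a log2 difference of −0.06 (limma adjusted p = 0.917), and Cd40lg lay below the array medians on all 6 arrays. None of 6 B cell, 7 dendritic cell or 3 natural killer cell markers passed. The mean of the B cell list ran from 6.36 to 6.44 in Tc17 and from 6.33 to 6.34 in Tc1. For the dendritic cell list it ran from 6.96 to 7.15 in Tc17 and from 6.85 to 7.01 in Tc1. Among B cell markers, every Tc17 array lay above every Tc1 array for Cd79b (log2 difference 0.52) and below for Blk (−0.17). The other 4 overlapped. Of the dendritic cell markers, Batf3 lay above (0.52) and 6 overlapped. Lyz2, which encodes lysozyme, rose among 7 monocyte and macrophage markers, by 3.53 (limma adjusted p = 0.00594, and 0.055 without Tc1 sample 2). The mean of the monocyte list ran from 6.71 to 6.87 in Tc17 and from 6.10 to 6.29 in Tc1, and without Lyz2 from 6.37 to 6.49 in Tc17 and from 6.20 to 6.40 in Tc1. Csf1r, Cd14 and Adgre1 also had every Tc17 array above every Tc1 array, as in 15.2% of all genes. Their log2 differences of 0.28, 0.25 and 0.38 did not pass. Cd14 and Adgre1 lay below the array medians on all 6 arrays, and Lyz2 did so on the 3 Tc1 arrays. The arrays overlapped for Itgam, Fcgr1 and Cd68. The natural killer cell list had a mean from 5.56 to 5.85 in Tc17 and from 5.20 to 5.39 in Tc1. Of its 3 markers, Klri2 had a log2 difference of 1.25 (limma adjusted p = 0.181). Ncr1 and Klrb1c had 0.01 and 0.04 and lay below the array medians on all 6 arrays. Whether the differences among these markers have a part in those of Foxp3 and its companions was not tested.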

How the data were processed

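The deposited values were log2 intensities. The submitters' processing notes name RMA and Partek without versions. The genome build and the arrays normalized together are not given in the sources used here. RMA log2 values of 41345 probe sets on 6 arrays were analysed; the number of arrays limits the precision. Of these, 23521 carried a single symbol in the platform annotation, 1814 carried several and were not named, and 16010 carried none. The array called technical in each group was averaged with the biological sample of the same number, a reading the labels do not settle. Across all probe sets it correlated with sample 2 at 0.9964 in Tc17 and 0.9965 in Tc1. With sample 1 the correlations were lower, at 0.9949 and 0.9945. Differences (Tc17 minus Tc1) came from lmFit and eBayes of limma 3.58.1 (R 4.3.3), with residual degrees of freedom of 2, prior ones of 2.63, no filter and Benjamini-Hochberg adjustment over all probe sets. With 1 sample left out, the lone sample of a group is assumed to vary like the other group. The procedure was checked on simulated data.

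The 8 genes and all lists were chosen with earlier results of these data known. Named from each list were the genes that passed (the 4 largest where over 5 did) and the 2 largest that did not, besides the Ikaros and FoxP families, the 3 measured genes on each side of Foxp3 and the 5 genes nearest to it, provisional symbols passed over. Exceptions are marked in the text. Promoter windows were searched for 5 motifs. Alternatives covered the reading of the technical array, a replicate block, normalization, filters on level, moderation, left-out samples and averaged probe sets. Figures were drawn with matplotlib 3.10.9.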

Additional observations from a re-analysis of the deposited data

How the results depend on the processing

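Foxp3 passed under all 16 alternatives, with a difference between 3.82 and 4.03. Izumo1r passed in 13, Ikzf4 and Gpr83 in 12 each, and their losses were all among the fits with a biological sample left out, which have fewer samples and called 48 to 125 probe sets, against 418 with all samples. With a sample left out 1 to 2 of the 8 genes passed, against 4. The count of probe sets was 1581 with the technical array averaged with sample 1, 2318 with 6 arrays as separate samples, 2074 with the biological sample as a random block, 650 with probe sets of a mean of at least 6, where fewer are tested, and 874 when the probe sets of each gene were averaged, where only named genes are tested; the cause of the others was not tested. Under the first 3 of these settings Ebi3 passed as well (differences of 0.75, 0.80 and 0.81), making 5 of the 8, and Lrrc32 turned to 0.029, 0.019 and 0.011. The first of these settings averages the technical array with the sample it correlated with less closely. The fit on 6 arrays as separate samples counts the technical arrays as further samples, which their label does not bear out. With a sample left out Lrrc32 ran from −0.36 to 0.27 and Nrp1 from −0.35 to 0.14. The labels give both groups the same replicate numbers but no shared animal or day. When each gene's probe sets were averaged, Ebi3 had a difference of 0.46. With the replicate block 1535 probe sets and 6 of the 8 genes passed, the 2 more being Ebi3 (0.87, limma adjusted p = 0.0336) and Ikzf2 (−0.51, limma adjusted p = 0.0433). Deviations of same-numbered samples from their group means correlated at 0.31 across probe sets, which with 2 samples per group does not settle a pairing. Normalizing again, centring, the filter at a mean of 5 and both eBayes settings kept 4 of the 8 called. Dim probe sets such as Gpr83 and Nrp1 are limited by unknown background.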
